A study of Rattus norvegicus with 24 samples.

Results

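The comparison described here sets serum miRNAs of rats fed fish oil against those of rats on a normal diet, both after ozone. It takes 11 of the 23 libraries analysed: 5 from rats given fish oil and ozone (replicates 1, 3, 4, 5 and 6; replicate 2 was not analysed here) and 6 from rats given the normal diet and ozone. The labels describe 24 samples in 4 groups that cross diet with exposure, with 1 library per rat, and the libraries were chosen by these labels alone. All were male Wistar Kyoto rats. Feeding began at 4 weeks of age and ran for 8 weeks. The normal diet was the facility's usual chow, and the other was a custom diet with 6% fish oil by weight from another maker, so that fish oil and any other difference between these diets cannot be told apart. Both groups then breathed ozone at 0.8 ppm (0.8045 ppm as measured) for 4 h on each of 2 days in a row. Rats shared cages in pairs, and which rats shared a cage is not given. RNA came from 100 µl of serum, 10 ng of it entered each library, and 50 cycles were read from 1 end. The 2 groups kept in filtered air entered the low-count filter, the scaling and the shared estimate of spread, and are otherwise used where a diet difference after ozone is set beside that in air.

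A miRNA is a short RNA cut from a hairpin precursor. Its seed, bases 2 to 8, pairs with matching sites in messenger RNAs and lowers their stability or translation, so that miRNAs with 1 seed share many predicted targets. Serum holds miRNAs bound to proteins or packed in vesicles, shed by blood cells, platelets, the vessel wall and organs, and ozone is an oxidant gas that inflames the airways and acts on lipids and stress hormones beyond the lung. In serum, fewer cells of a type, less RNA per cell and less release from it cannot be told apart.

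RefSeq holds a mature sequence (rat build GRCr8) for 687 of the 753 miRNA names in the table and for 125 of the 136 tested below. The first set is shown because these miRNAs recur in the results on abundance and tissue lists below, miR-145-5p as the neighbour of miR-143-3p. The seed is in capitals and sequences run 5′ to 3′. Positions in the text are on rn5, as the files give them.
miR-191a-5p: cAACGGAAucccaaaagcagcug
miR-128-3p: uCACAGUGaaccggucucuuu
miR-143-3p: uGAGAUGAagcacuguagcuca
miR-145-5p: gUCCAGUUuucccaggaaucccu
miR-199a-3p: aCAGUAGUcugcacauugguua

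The second set is shown because members with identical seeds moved differently, which a count per miRNA can hide. The capitals again mark the seed, and members of a family follow each other.
miR-181a-5p: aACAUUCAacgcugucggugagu
miR-181b-5p: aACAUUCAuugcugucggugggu
miR-181c-5p: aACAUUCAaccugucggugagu
miR-181d-5p: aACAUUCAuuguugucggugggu
miR-27a-3p: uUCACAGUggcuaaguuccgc
miR-27b-3p: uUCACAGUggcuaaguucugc
miR-148a-3p: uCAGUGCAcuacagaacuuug
miR-148b-3p: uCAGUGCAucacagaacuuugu
miR-152-3p: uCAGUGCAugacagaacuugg
miR-16-5p: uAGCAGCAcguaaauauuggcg
miR-497-5p: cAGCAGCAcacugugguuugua
miR-25-3p: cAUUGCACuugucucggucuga
miR-92a-3p: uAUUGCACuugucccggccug
miR-92b-3p: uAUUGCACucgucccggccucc
miR-363-3p: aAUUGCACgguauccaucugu

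Some of these differ by a single base. Counted from 1 at the 5′ end, miR-27b-3p and miR-27a-3p differ by U19C and miR-181b-5p and miR-181d-5p by C12U. In each case the first named carries the first base. How reads that match several members were shared out is not given in the sources used here, so values of such close members are uncertain.

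The libraries of the 11 rats held 26772 to 94264 miRNA counts. The lowest count taken as different from 0, 3 counts, was worth 31.8 to 112 CPM (counts scaled to a common library total, as used for all levels here), and such floors cover counting error only. The miRNA total on fish oil was 0.541 times that on the normal diet by geometric means (exact permutation test, two-sided, p = 0.0130, adjusted over 8 library measures 0.0346), and the total lay between 26772 and 45064 on fish oil and between 33739 and 94264 on the normal diet. The miRNA count of a library therefore moves with diet, and its part in the differences of single miRNAs below was not tested. The implied read total, by which the authors scaled each library, averaged 4.481e+06 on fish oil and 4.48e+06 on the normal diet (exact permutation p = 0.996). MiRNA counts made up 0.826% of it on fish oil and 1.56% on the normal diet (exact permutation p = 0.0411, adjusted 0.0823). The erythrocyte index, log2 of miR-451-5p over miR-23a-3p, was −2.14 ± 1.24 on fish oil (SD, n = 5) and −2.74 ± 1.02 on the normal diet (n = 6; exact permutation p = 0.396). Fish oil ozone 3 stood apart. Across the tested miRNAs its median Spearman correlation with its own group was 0.870, against 0.910 to 0.931 for the other 4 fish oil libraries and 0.924 to 0.954 for the normal diet libraries. Fish oil ozone 6 was the 1 library that correlated more with the other group (0.937) than with its own (0.912).

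Fish oil rats had a different order of abundance in serum after ozone. MiR-143-3p, known from smooth muscle and other mesenchyme, ranked 1st in all 5 fish oil libraries and 2nd in the 6 of the normal diet. MiR-191a-5p, abundant in blood cells and platelets, ranked between 2nd and 7th on fish oil and 1st in each of the 6 others. As a share of miRNA counts, miR-143-3p took 33.2, 26.8, 26.4, 34.0 and 20.6% in fish oil ozone 1, 3, 4, 5 and 6. On the normal diet it took 8.68 to 16.3% (median 10.9%), so the groups did not overlap (exact permutation p = 0.00217, the smallest this design can give, adjusted 0.00866). MiR-191a-5p took 5.30, 3.61, 10.1, 3.79 and 14.3% on fish oil against 19.9 to 30.7% (median 22.3%) on the normal diet, with the same exact permutation p. The 2 shares come from 1 library each time and are not independent. Their log2 ratio within a library, which no scaling can move, was 2.65, 2.89, 1.38, 3.16 and 0.52 on fish oil and −1.64 to −0.42 on the normal diet. Fish oil ozone 6 was closest to the normal diet in each of these measures, and fish oil ozone 3 and 5 were farthest in miR-191a-5p.

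Of 136 miRNAs tested, 31 passed an adjusted p of 0.05 (22.8%; edgeR quasi-likelihood test, Benjamini-Hochberg), 17 higher on fish oil (12.5%) and 14 lower (10.3%). The median log2 difference over all 136 was 0.00, with 68 above 0 and 68 below. Scaling by the trimmed mean of M values centres libraries on each other, so a median near 0 is largely built in. In 26 of the 31, all 5 fish oil libraries lay on 1 side of the normal diet mean. The 31 were chosen by the values of these same libraries, so this count is no further evidence. MiRNAs that did not pass, such as let-7i-5p and miR-217-5p, also had all 5 on 1 side. Without fish oil ozone 3, which was the farthest of the 5 in the direction of change for 22 of the 31, the count was 12 (4 higher, 8 lower). Of these, 11 were among the 31. All 31 kept their sign and 28 moved closer to 0. With the ozone groups alone in the fit, 23 passed. Library values of 9 of the 136 (6.62%) did not overlap between the groups. They were miR-191a-5p, miR-181d-5p, miR-128-3p, miR-151-3p and let-7g-5p, which were lower, and miR-10b-5p, miR-152-3p, miR-144-5p and miR-497-5p, which were higher. Of these, let-7g-5p did not pass (edgeR adjusted p = 0.0864). For miR-10b-5p the gap was very small, 182.1 CPM in fish oil ozone 6 against 181.4 CPM in normal ozone 2, with 6 counts in each.

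**Figure D1:**
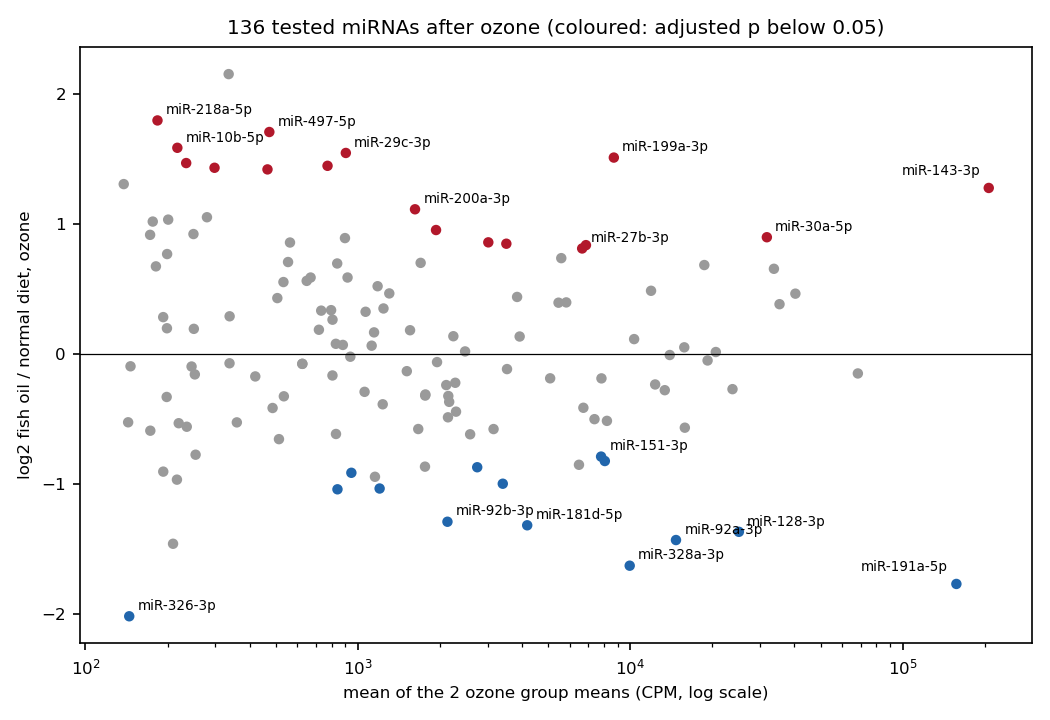
Log2 difference between fish oil and normal diet after ozone (y axis) against the mean of both group means in CPM (x axis, log scale), 1 point per tested miRNA, with red and blue for the 17 higher and 14 lower past an adjusted p of 0.05. MiR-143-3p and miR-191a-5p sit at the right edge, on opposite sides of 0.

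The split into higher and lower rests on scaling to miRNA counts. Scaled instead to the implied read total (that by which the authors' RPM values were scaled, which counts far more than miRNAs), the median of all 136 was −0.96, and 46 passed, 0 higher and 46 lower. That count of 0 higher is from edgeR. With limma on the authors' RPM, 0 were higher and 48 lower with 1 added before the log, and 0 higher and 43 lower with 10 added. All 14 miRNAs that fell were still called lower with the implied read total. Of the 17 that rose, 13 stayed above 0, and miR-27b-3p, miR-29a-3p, miR-30e-5p and miR-30a-5p were below 0. Rose and fell below therefore mean relative to the other miRNAs of a library.

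Of the miRNAs that fell, miR-191a-5p had the smallest p and miR-181d-5p and miR-128-3p followed. MiR-191a-5p (chr8:116698881-116698904), the 1 tested miRNA with its seed among those with a sequence, stood at 56082, 32383, 102640, 48658 and 116466 CPM in fish oil ozone 1, 3, 4, 5 and 6. In normal ozone the lowest was 194324, the median 231169 and the highest 346465 CPM, above every fish oil library. It fell, with a log2 difference of −1.77 (SE 0.32, edgeR adjusted p = 0.000635). MiR-425-5p, whose position starts 453 bases away, was at −0.62 and did not pass (edgeR adjusted p = 0.0666).

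MiR-128-3p, an abundant brain miRNA that also represses cholesterol export genes, stood at 9973, 9468, 19538, 6729 and 24010 CPM on fish oil. The normal diet libraries lay at 31202 to 41492 CPM (median 36417), so that the groups did not overlap. The log2 difference was −1.37 (SE 0.28, edgeR adjusted p = 0.0011). It has loci at chr13:50001755-50001776 and chr8:119718197-119718218, which were summed.

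MiR-181d-5p, of a family known for tuning lymphocyte signalling, had 2524, 2104, 3286, 1284 and 2701 CPM on fish oil. On the normal diet it had 3950 to 8169 CPM (median 6013), again without overlap. It fell by 1.32 (SE 0.26, edgeR adjusted p = 0.000847). MiR-181c-5p, 171 bases away on chr19, fell by 1.04 (SE 0.30, edgeR adjusted p = 0.0108), with 427 to 1002 CPM on fish oil and 937 to 2609 on the normal diet. Both miRNAs of this cluster fell, and the edgeR adjusted p of miR-181c-5p was 0.0517 without fish oil ozone 3. The opposite arm, miR-181c-3p, was at −0.62 and did not pass (adjusted p = 0.104).

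MiR-92a-3p, a member of the miR-17-92 cluster that is plentiful in red cells, stood at 7572, 2564, 9589, 7273 and 12688 CPM on fish oil. The normal diet range was 12235 to 34643 CPM (median 19280), and only fish oil ozone 6 reached into it. It fell by 1.43 (SE 0.34, edgeR adjusted p = 0.0038). MiR-92b-3p, which differs from it outside the seed, fell by 1.29 (SE 0.37, edgeR adjusted p = 0.0108), with 1170, 493, 1823, 972 and 1669 CPM against 1601 to 5254 (median 2749). Fish oil ozone 4 and 6 overlapped the normal diet there. MiR-328a-3p, expressed in brain and blood cells, stood at 7172, 1249, 4412, 3695 and 7710 CPM against 7539 to 26253 (median 11904), and fell by 1.63 (SE 0.40, edgeR adjusted p = 0.00649). Here, too, only fish oil ozone 6 overlapped.

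The other 7 that fell were miR-326-3p (−2.02), miR-130b-3p (−1.04), let-7d-3p (−1.0), miR-872-5p (−0.92), miR-17-5p (−0.87), miR-146b-5p (−0.83) and miR-151-3p (−0.79), with edgeR adjusted p between 0.0108 and 0.0395. MiR-146b-5p, a brake on innate immune signalling, had 5030 to 8261 CPM on fish oil and 7989 to 14376 on the normal diet, with overlap in fish oil ozone 4 alone. MiR-151-3p did not overlap, at 4175 to 7315 against 7589 to 15427 CPM. MiR-326-3p was sparse, and its log2 difference was −3.75 without fish oil ozone 6. It had 0 counts in fish oil ozone 1, 3 and 4, 78 and 212 CPM in fish oil ozone 5 and 6, and 126 to 350 CPM on the normal diet. A level of 0 there allows up to 66.6 to 109.9 CPM by library total alone, before the TMM scaling of these levels.

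**Figure D2:**
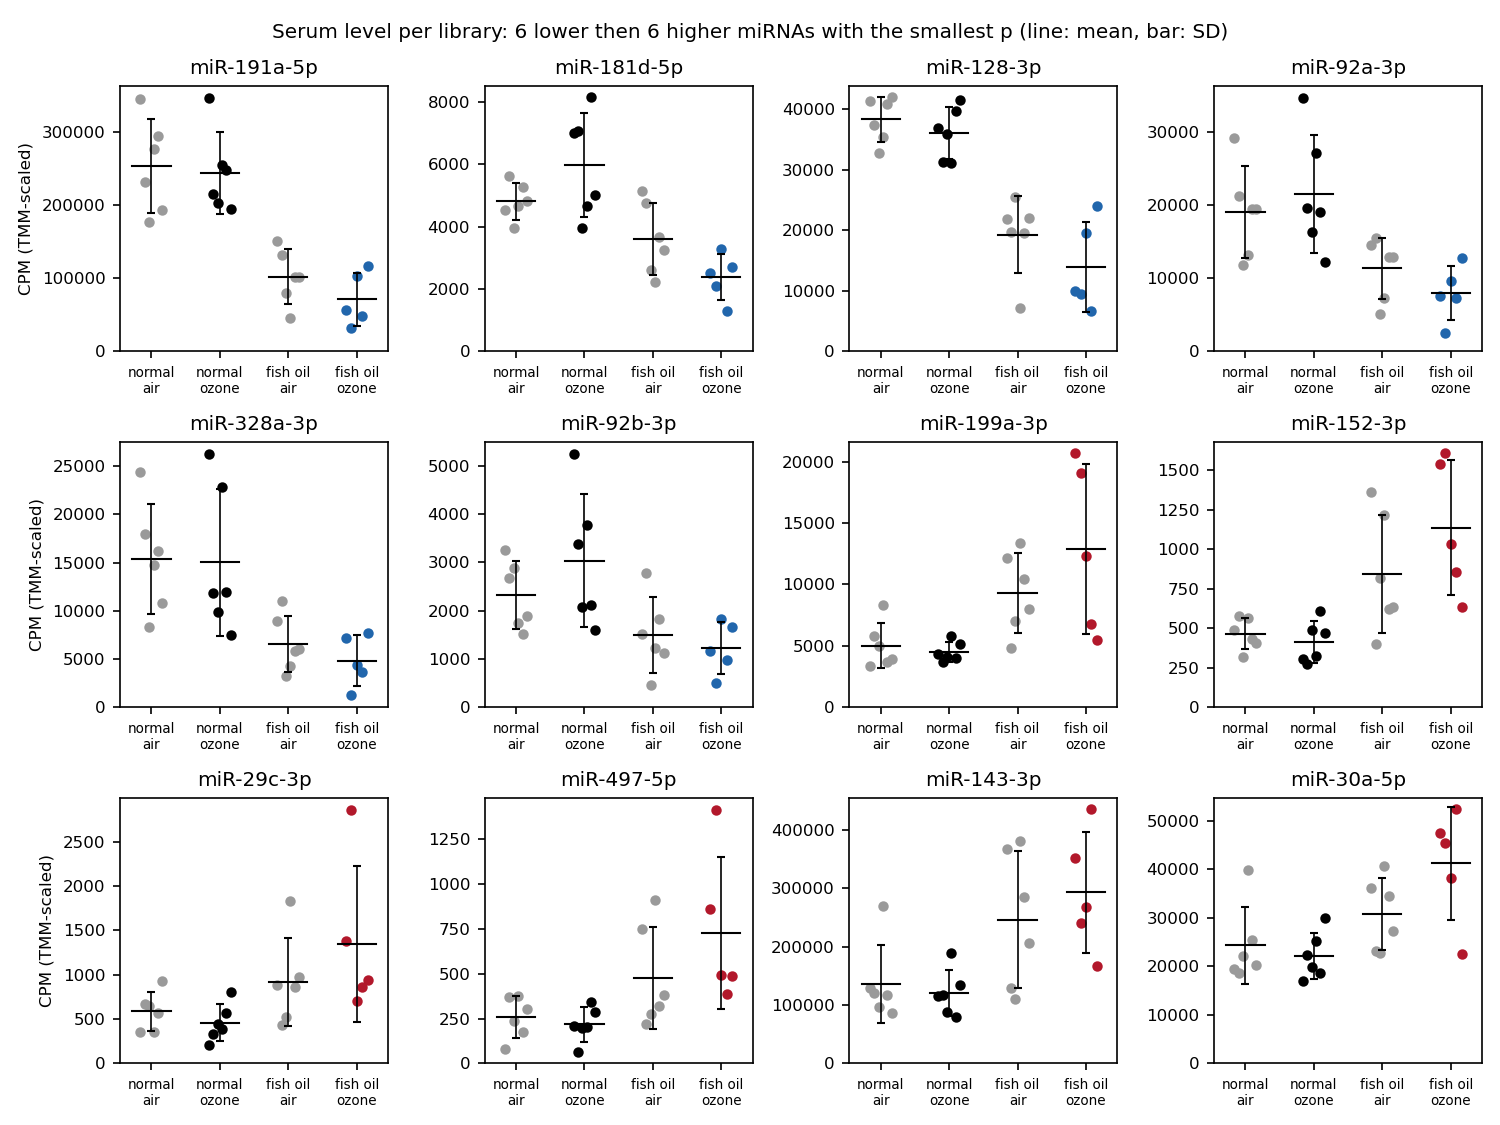
CPM after TMM scaling (y axes, from 0) in each library of the 4 groups (x axis) for the 6 lower and 6 higher miRNAs with the smallest p after ozone, 1 point per library, with a line at each mean and a bar of 1 SD. Between the ozone groups miR-191a-5p, miR-181d-5p, miR-128-3p, miR-152-3p and miR-497-5p show no overlap, and the other 7 overlap in at least 1 library.

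Of the miRNAs that rose, miR-199a-3p had the smallest p and miR-152-3p the next. MiR-199a-3p (chr13:85019466-85019488), a fibroblast miRNA, stood at 20715, 19035, 12335, 6768 and 5494 CPM on fish oil. The normal diet libraries held 3719 to 5830 CPM (median 4198), and only fish oil ozone 6 fell within that range. It rose by 1.51 (SE 0.30, edgeR adjusted p = 0.000991). MiR-152-3p, of the miR-148 family, had 1539, 1611, 1035, 856 and 637 CPM against 272 to 610 (median 395), without overlap, and rose by 1.44 (SE 0.32, edgeR adjusted p = 0.00243). MiR-497-5p, which has the seed of miR-16 but is known from mesenchymal cells, had 862, 1414, 495, 389 and 486 CPM against 60 to 344 (median 205). It rose by 1.71 (SE 0.43, edgeR adjusted p = 0.00649; 0.0574 without fish oil ozone 3).

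MiR-143-3p, the most abundant miRNA on fish oil, had 351145, 240292, 267876, 436051 and 167490 CPM, against 79488 to 189683 (median 116924) on the normal diet. It rose by 1.27 (SE 0.34, edgeR adjusted p = 0.00913). Only fish oil ozone 6 overlapped. MiR-145-5p, made from the same transcript and starting 1340 bases away on chr18, rose by 1.42 (edgeR adjusted p = 0.0368), with 315 to 1089 CPM against 94 to 504. It was far less abundant, and its call was lost in 14 of 23 fits that left out 1 library each (adjusted p of up to 0.162).

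MiR-29c-3p and miR-29a-3p share a seed that targets collagen mRNAs. They differ by C10U in the sequence of miR-29a-3p. MiR-29c-3p had 1385, 2860, 698, 856 and 941 CPM against 207 to 810 (median 416) and rose by 1.54 (SE 0.39, edgeR adjusted p = 0.00649; 0.0747 without fish oil ozone 3). MiR-29a-3p rose by 0.85 (edgeR adjusted p = 0.0261). Without fish oil ozone 3 it was at 0.55 (adjusted p = 0.201). Fish oil ozone 3 had the highest level of both, at 7233 CPM for miR-29a-3p against 3491 to 4473 in the other 4.

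MiR-30a-5p, of a family found in epithelium and many other tissues, had 47556, 45336, 38287, 52469 and 22522 CPM against 17003 to 29904 (median 21144), and fish oil ozone 6 alone overlapped. It rose by 0.90 (edgeR adjusted p = 0.0101). MiR-30e-5p, which differs from it by C13U (miR-30a-5p first), rose by 0.83 (edgeR adjusted p = 0.0108). It was at 0.55 without fish oil ozone 3 (adjusted p = 0.112). Their opposite arms did not pass: miR-30a-3p was at 0.18 (adjusted p = 0.722) and miR-30e-3p at −0.24 (adjusted p = 0.475).

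The other 8 that rose were miR-144-5p (1.47), miR-144-3p (1.43), miR-27b-3p (0.81), miR-200a-3p (1.11), miR-10b-5p (1.58), miR-218a-5p (1.79), miR-101a-3p (0.95) and miR-203a-3p (0.86), with edgeR adjusted p between 0.0108 and 0.0465. Without fish oil ozone 3, miR-218a-5p was at 0.98, miR-101a-3p at 0.58 and miR-144-3p at 0.67. Both arms of the erythroid miR-144 hairpin rose, and miR-451-5p, made 176 bases away and also erythroid, was at 0.55 and did not pass (adjusted p = 0.454). MiR-144-5p had 339, 559, 270, 272 and 273 CPM against 54 to 242, without overlap. MiR-27b-3p rose while miR-23b-3p (0.59) and miR-24-3p (−0.19), which start 242 and 490 bases away on chr17, did not pass. MiR-200a-3p and miR-203a-3p are epithelial; miR-429, made from the miR-200a cluster, was at 0.67 and did not pass (adjusted p = 0.382). MiR-10b-5p, a miRNA of mesenchyme encoded within a HOX cluster, had 182 to 526 CPM against 31 to 181. Of the 17 that rose, 6 had a mean under 20 counts per library (miR-10b-5p, miR-144-3p, miR-145-5p, miR-497-5p, miR-218a-5p and miR-144-5p), as had 1 of the 14 that fell (miR-326-3p).

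The calls did not rest equally on single libraries. In each of 23 fits that left out 1 library, 11 of the 31 stayed past the threshold: miR-191a-5p, miR-181d-5p, miR-128-3p, miR-92a-3p, miR-328a-3p, miR-151-3p, miR-146b-5p, miR-199a-3p, miR-152-3p, miR-143-3p and miR-30a-5p. Their highest edgeR adjusted p was 0.0487. Another 8 lost the call only without fish oil ozone 3: miR-29c-3p, miR-497-5p, miR-181c-5p and miR-30e-5p with the values above, miR-144-5p (adjusted p = 0.0685), miR-27b-3p (0.0859), miR-92b-3p (0.0565) and miR-218a-5p (0.258). The remaining 12 lost it in 2 or more fits. For let-7d-3p these were the fits without fish oil ozone 3 or 5 (up to 0.0640), for miR-200a-3p without fish oil ozone 3 or 5 or normal ozone 1 (up to 0.0940), and for miR-10b-5p without fish oil ozone 3 or normal ozone 4 (up to 0.0940). MiR-326-3p was tested in only 19 of the 23 fits. It kept the call in 15 and lost it without fish oil ozone 1, 3, 4 or 5 (up to 0.0763). MiR-29a-3p lost the call without fish oil ozone 3 or normal ozone 1, 2 or 4. For miR-17-5p, miR-101a-3p, miR-203a-3p, miR-145-5p, miR-872-5p, miR-130b-3p and miR-144-3p it was lost in 6 to 16 of the 23 fits, without fish oil ozone 3 in each case.

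**Figure D3:**
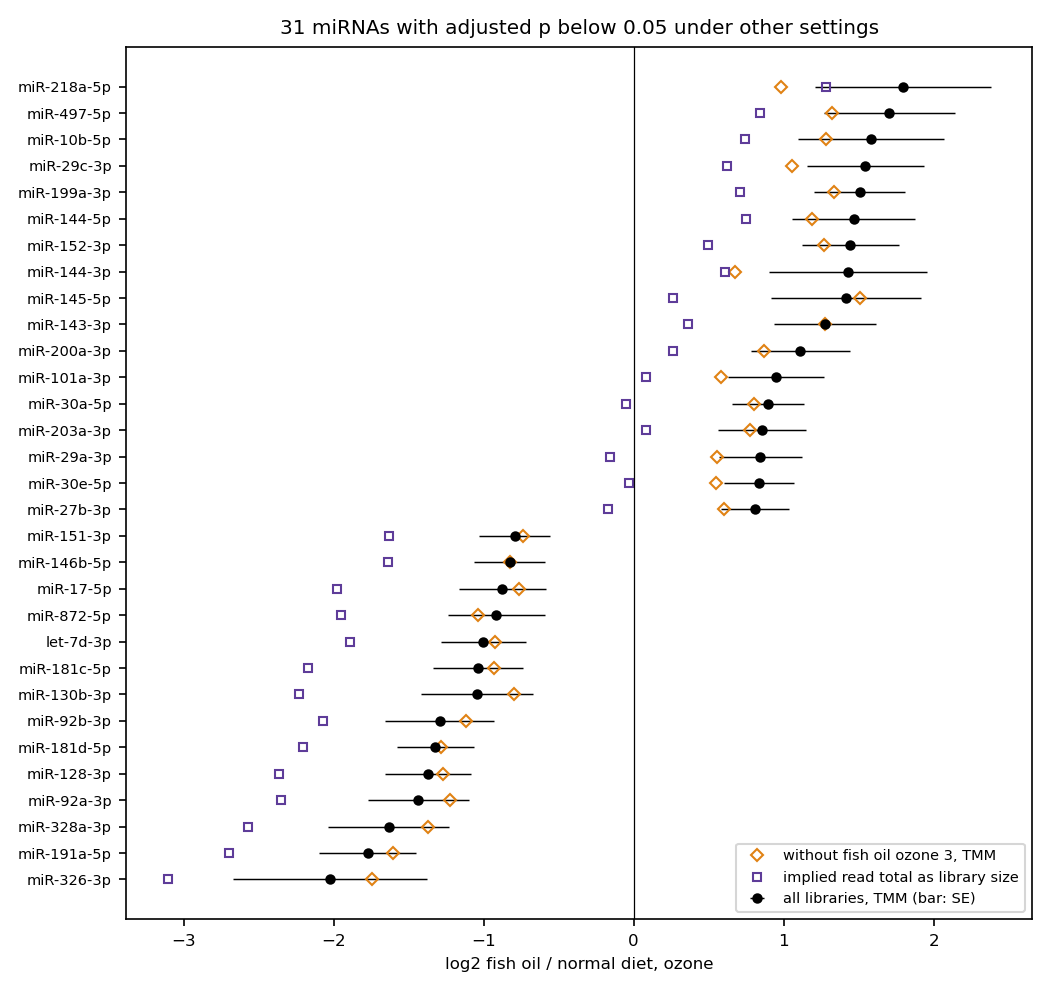
Log2 difference between fish oil and normal diet after ozone (x axis) for each of the 31 miRNAs past the threshold (y axis), with filled points for all libraries (bar: SE), diamonds without fish oil ozone 3 and squares when scaled to the implied read total. Without fish oil ozone 3, 28 of the 31 lie closer to 0, and with the implied read total 13 of the 17 that rose stay above 0.

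Described by lists of tissue and pathway miRNAs, with a median of 0.00 over all 136 for reference, mesenchymal and vascular miRNAs had the highest medians of the 17 lists and neural ones the lowest. Over all 136, 12.5% rose and 10.3% fell. Of 9 tested members of the mesenchyme and fibroblast list 6 rose (miR-199a-3p, miR-152-3p, miR-497-5p, miR-10b-5p, miR-29a-3p and miR-29c-3p), 0 fell and 3 did not pass. The list median was 1.44, and 1.05 without fish oil ozone 3, when 2 members passed. With the implied read total it was 0.50. Their summed share of counts was 3.42 to 8.77% on fish oil and 2.36 to 5.30% on the normal diet. The members that did not pass were miR-10a-5p (0.65), miR-99a-5p (0.26) and miR-100-5p (0.85).

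In the vascular wall list 2 of 6 rose, miR-143-3p and miR-145-5p, with a median of 1.16, against 12.5% of all 136 that rose. The median was 0.12 with the implied read total, and 1 of the 6 passed without fish oil ozone 3. The endothelial members miR-126a-3p (1.05, edgeR adjusted p = 0.107) and miR-126a-5p (0.68, adjusted p = 0.0948) did not pass, nor did miR-221-3p (0.44) and miR-222-3p (1.30). For miR-126a-3p the 5 fish oil libraries held 185 to 495 CPM against 51 to 360.

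In the neural list 3 of 4 fell (miR-128-3p, miR-326-3p and miR-328a-3p) and 1 rose (miR-218a-5p), with a median of −1.50. Of all 136, 10.3% fell and 12.5% rose. Without fish oil ozone 3 the list median was −1.32 and 2 of the 4 passed. The summed share of the list was 0.879 to 4.02% on fish oil and 4.30 to 5.72% on the normal diet. MiR-218a-5p, known from motor neurons, had 0, 756, 203, 272 and 212 CPM against 36 to 127 on the normal diet, near the floor. Other listed neural miRNAs had too few counts to be tested, 8 of 12.

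Blood cell lists were mixed, and their counts stand beside 12.5% that rose and 10.3% that fell over all 136. Of 11 platelet miRNAs 1 fell, miR-191a-5p, 10 did not pass, and the median was −0.19; their summed share was 15.9 to 27.4% on fish oil and 31.5 to 40.0% on the normal diet. Without miR-191a-5p the share of the others was 12.1 to 14.96% on fish oil (median 12.9%) and 9.33 to 12.9% on the normal diet (median 11.9%), so the lower sum on fish oil came from miR-191a-5p. Of 8 erythrocyte miRNAs both arms of miR-144 rose, miR-92a-3p fell and 5 did not pass, with a median of −0.07. MiR-16-5p, abundant in red cells, was at 0.05. Of 6 myeloid and inflammation miRNAs 1 fell, miR-146b-5p. MiR-223-3p, the neutrophil and platelet miRNA, was at −0.87 (edgeR adjusted p = 0.102), with 700 to 2038 CPM on fish oil and 1330 to 5164 on the normal diet. The inflammation miRNAs miR-21-5p (0.38, adjusted p = 0.193) and miR-155-5p (0.29, adjusted p = 0.563) did not pass. Of 8 lymphocyte miRNAs 2 rose, miR-29a-3p and miR-29c-3p, which the mesenchyme list also holds, and miR-150-5p was at 0.32 (adjusted p = 0.475).

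Of 6 epithelial miRNAs 2 rose, miR-200a-3p and miR-203a-3p, and 4 did not pass, beside 12.5% of all 136 that rose. The list median was 0.87. It was −0.07 with the implied read total, and neither miR-200a-3p nor miR-203a-3p passed without fish oil ozone 3. MiR-141-3p (0.89), miR-205 (1.03), miR-429 (0.67) and miR-375-3p (−0.49) made up the rest. Organ markers did not pass. For liver this was 4 of 4, with miR-122-5p, the hepatocyte miRNA, at 0.01 (adjusted p = 0.984). Its sign changed with the scaling and with single libraries. Fish oil ozone 5 held 52547 CPM and the other 4 held 10422 to 15936. For striated muscle it was 3 of 3, with miR-1-3p at 0.18, and for pancreas 3 of 3, with miR-217-5p at 2.15 (adjusted p = 0.0652).

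Of 13 miRNAs listed for lipid metabolism 2 rose (miR-27b-3p and miR-144-3p) and 1 fell (miR-128-3p), with a median of −0.07, beside 22.8% called over all 136. MiR-33-5p, encoded in a gene for a sterol-responsive transcription factor and known to repress cholesterol export, was at −0.56 and did not pass (adjusted p = 0.434). Of 10 oxidative and hypoxic stress miRNAs 2 rose (miR-144-3p and miR-200a-3p), 0 fell, and the hypoxia miRNA miR-210-3p was at −0.08 (adjusted p = 0.886). MiR-210-3p has the same counts as miR-3574. Both names have the same position on chr1 and complementary sequences, so they are not separate measurements. All 9 let-7 members tested lay below 0 (median −0.32) and 0 passed, the smallest edgeR adjusted p being that of let-7i-5p (−0.57, 0.0584). At an unadjusted p, 47 of the 136 were under 0.05.

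**Figure D4:**
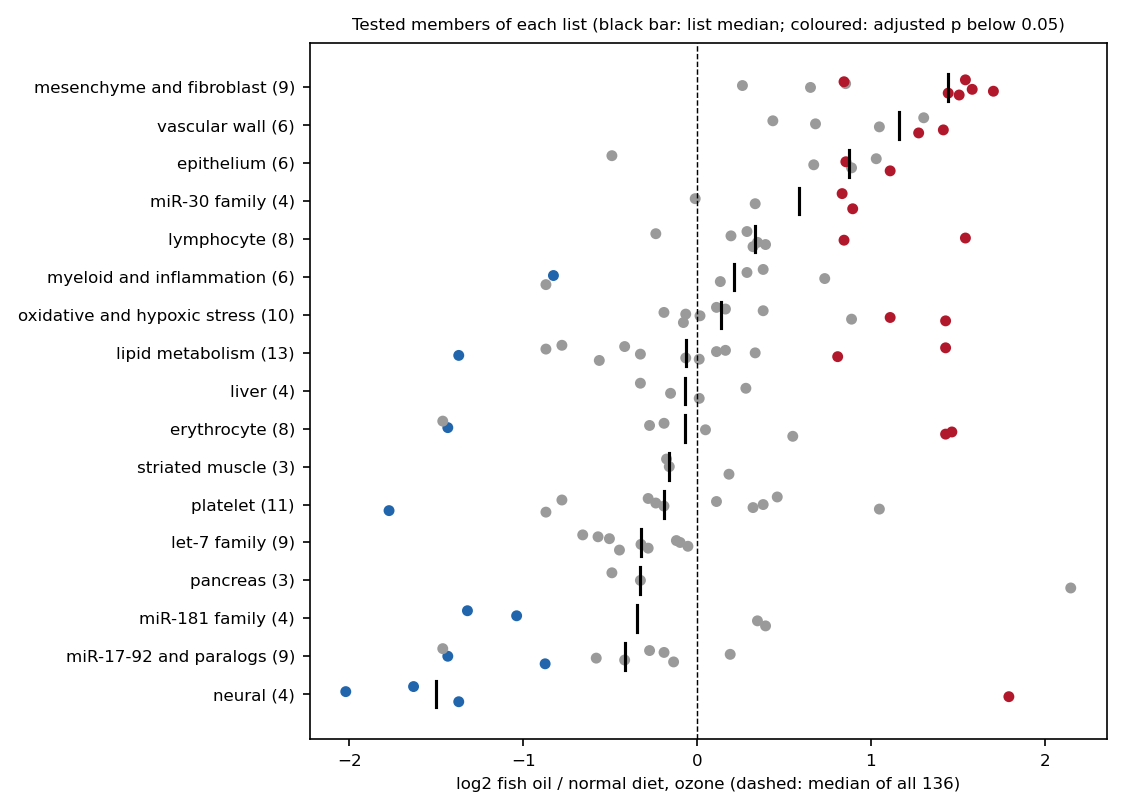
Log2 difference between fish oil and normal diet after ozone (x axis) for each tested member of the lists (y axis), 1 point per miRNA, coloured where the adjusted p was below 0.05, with a bar at each list's median. The mesenchyme and fibroblast median is at 1.44 and the neural one at −1.50.

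Counts were also summed over miRNAs with 1 seed, since those share predicted targets. Of 90 seed families 13 passed (14.4%; edgeR), 7 higher and 6 lower, and 6 passed without fish oil ozone 3, 5 of them among the 13, or without normal ozone 5. Most were single miRNAs. Of those with several members, the miR-25 and miR-92 family (miR-25-3p, miR-92a-3p, miR-92b-3p and miR-363-3p) fell by 0.83 (edgeR adjusted p = 0.0189), the summed miR-30c-5p, miR-30e-5p and miR-30a-5p rose by 0.74 (adjusted p = 0.0207), and the summed miR-29 members rose by 0.83 (adjusted p = 0.0476). In that order the adjusted p was 0.0875, 0.0485 and 0.125 without fish oil ozone 3. MiR-30d-5p is not in the miR-30 sum, and was at −0.01 (adjusted p = 0.967). The miR-181 family did not pass as a sum (−0.40, adjusted p = 0.148), nor did miR-148a-3p, miR-148b-3p and miR-152-3p (−0.09), miR-16-5p and miR-497-5p (−0.03), the miR-146 pair (−0.31, adjusted p = 0.251) or let-7 (−0.42, adjusted p = 0.149).

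The balance of members differed between the diets in some families. The log2 ratio of the most abundant member to the rest, and of the arms of a hairpin, was taken within each library, so that no scaling between libraries enters. These 35 ratios were chosen after single miRNAs had been seen, and 5 passed after adjustment over the 35, 4 of 21 between family members and 1 of 14 between arms (exact permutation test, two-sided). The ratio of miR-181a-5p to miR-181b-5p, miR-181c-5p and miR-181d-5p was 0.52 ± 0.52 on fish oil (SD, n = 5) and −0.78 ± 0.25 on the normal diet (n = 6; exact permutation p = 0.00217, adjusted 0.0253). It lay between −0.21 and 1.08 on fish oil and between −1.07 and −0.32 on the normal diet. On the normal diet the other 3 together outnumbered miR-181a-5p in every library, and on fish oil the mean was on the other side of 0.

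MiR-27b-3p over miR-27a-3p, which are 1 base apart, was 2.14 ± 0.40 on fish oil and 1.30 ± 0.17 on the normal diet, again without overlap (exact permutation p = 0.00217, adjusted 0.0253). MiR-30e-5p over its opposite arm was 2.13 ± 0.51 and 1.09 ± 0.35, without overlap and with the same p. MiR-148a-3p over miR-148b-3p and miR-152-3p was −0.16 ± 0.39 against 0.61 ± 0.14 (exact permutation p = 0.00433, adjusted 0.0303). MiR-16-5p over miR-497-5p was 4.55 ± 0.93 against 6.21 ± 0.67 (exact permutation p = 0.00433, adjusted 0.0303). These last pairs overlapped slightly between groups. Without fish oil ozone 3 all 5 kept their direction (exact permutation p of 0.00476 to 0.00952, not adjusted).

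Further ratios did not pass after adjustment. MiR-25-3p over the miR-92 members and miR-363-3p was 1.19 higher on fish oil, miR-146b-5p over miR-146a-5p was 1.55 lower, and the 5p over the 3p arm of miR-30a was 0.74 higher (exact permutation, adjusted p = 0.0568 each). MiR-146a-5p itself was at 0.73 (edgeR adjusted p = 0.0592), on the other side of 0 from miR-146b-5p, with which it shares its seed. The ratio of miR-103-3p to miR-107-3p was 3.16 ± 0.37 and 3.19 ± 0.32, and that of miR-30a-5p to miR-30e-5p and miR-30c-5p was 2.10 ± 0.38 and 1.99 ± 0.26.

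By sequence, the 16 that rose and have a RefSeq sequence had a median GC content of 40.9%, the 12 that fell 47.7%, and all 125 tested with one 45.5%. Across those 125 the Spearman correlation of GC content with the log2 difference was −0.17, given as a description, since miRNAs share their libraries. Over all 136 tested, the Spearman correlation of the mean count with the log2 difference was −0.22.

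The same diets were also compared after filtered air, in other rats. There 8 of 136 passed (5.88%; edgeR), and 4 passed in both exposures: miR-191a-5p, miR-128-3p, miR-328a-3p and miR-181c-5p, which are 4 of the 31 after ozone and 4 of the 8 in air. Of the 31, 30 had the same sign in air; miR-200a-3p was the exception, at −0.19. The median size of the log2 difference of the 31 was 1.29 after ozone and 0.66 in air, and all 31 were larger after ozone. Those 31 were chosen by their values after ozone, so this count says nothing of a difference between exposures. Over all 136 miRNAs 104 had the same sign in both, with Pearson's r of 0.73 and Spearman's rho of 0.76. The points are miRNAs measured in shared libraries, so no p is given.

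The interaction, which tests whether the diet difference after ozone differed from that in air, was called for 0 of 136 (0%; edgeR), with 6 at an unadjusted p under 0.05 and a smallest adjusted p of 0.468. DESeq2 and limma voom also called 0, with 6 unadjusted in each. The smallest p values were those of let-7i-5p (0.30 in air, −0.57 after ozone, edgeR unadjusted p = 0.00663), miR-200a-3p (unadjusted p = 0.00789) and miR-22-3p (−0.42 in air, 0.46 after ozone, unadjusted p = 0.0121). Let-7i-5p, a member of the family that restrains growth and cytokine genes, was at 18330 ± 4461 CPM on fish oil (SD, n = 6) in air against 14860 ± 2051 without it, and at 12760 ± 3454 (n = 5) and 18930 ± 3551 (n = 6) after ozone. MiR-200a-3p was at 1221 ± 494 and 1404 ± 452 in air and at 2216 ± 984 and 1024 ± 287 after ozone. MiR-22-3p, found in red cells and platelets, was at 43290 ± 7996 and 57830 ± 19670 in air, and at 46730 ± 13000 and 33940 ± 5554 after ozone.

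**Figure D5:**
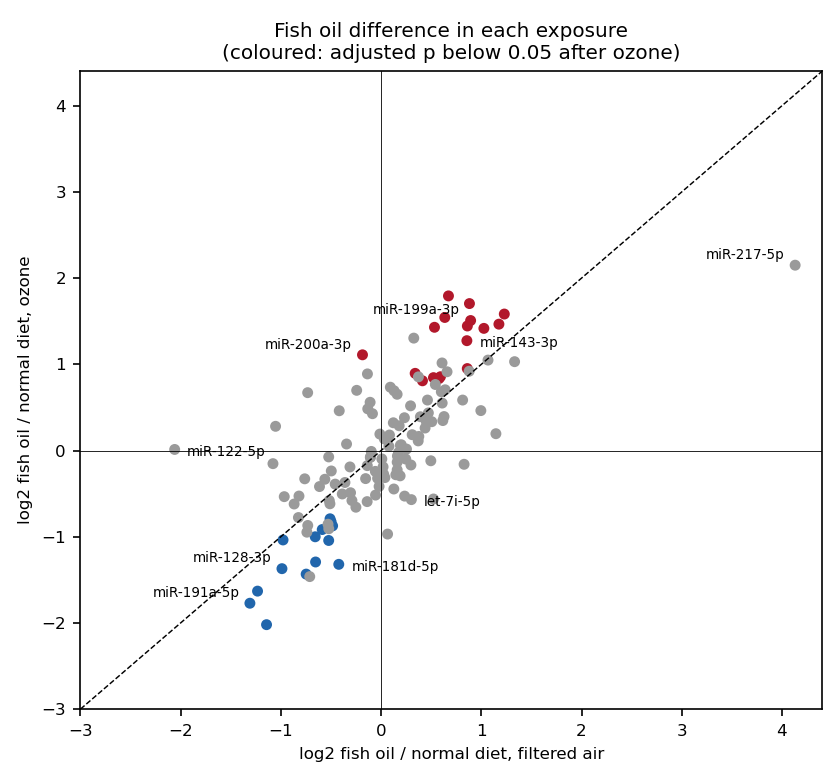
Log2 difference between fish oil and normal diet in filtered air (x axis) and after ozone (y axis), 1 point per tested miRNA, coloured where the adjusted p after ozone was below 0.05, with the dashed line of equal values. Of the 31 coloured points 30 have the same sign on both axes, and miR-200a-3p does not.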

How the data were processed

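Serum small RNA was sequenced from 24 rats per the labels, and 23 libraries had a column in the deposited tables. The authors deposited estimated counts per mature miRNA locus, taken as estimates since 50 of 832 loci hold fractions, and RPM, reads scaled by the authors to 1 total per library. The submitters' processing notes name Bowtie 1.0.0, Partek, bcl2fastq and build rn5. Not given in the sources used here: settings, annotation and the handling of multiply matching reads. In a library, RPM equal its counts over 1 total plus 0.0001, which gave the implied read total.

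Counts of 1 name were summed (753 names) and rounded, and filterByExpr left 136 miRNAs, which hold 99.3% of the counts of the 11 ozone libraries. After TMM scaling, edgeR 4.0.16 (R 4.3.3) ran its robust quasi-likelihood test, two-sided, with 1 mean per group over all 23 libraries, Benjamini-Hochberg adjustment over the 136 and a threshold of 0.05. The SE was taken from the F statistic. Each library is 1 rat, so p-values measure the spread between these rats. Cage mates may not be independent, and cage could not enter the tests because which rats shared a cage is not given. Levels are CPM after TMM. Library measures and ratios within libraries (0.5 counts added to each side) used exact permutation tests. The scripts were tested on simulated data. Alternatives used DESeq2 1.42.0, limma 3.58.1, other scalings and filters, the ozone groups alone, the erythrocyte index as a covariate, and each library left out.

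Values in every library are given for the 6 miRNAs with the smallest p in each direction. All miRNAs past the threshold, the tested members of the lists, neighbours within 10 kb and opposite arms may be named. The comparison, the lists and the miRNAs were chosen with earlier results of these data known, and the ratios after seeing the values of single miRNAs.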

Additional observations from a re-analysis of the deposited data

Results flagged for a closer look

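Within groups of 5 or 6, 7 of 94 sets of library values held 1 library far from the rest by Dixon's criterion, which chance gives in about 1 in 20. Fish oil ozone 3 had 558.9 CPM of the erythroid miR-144-5p against 270 to 339 in the other 4 fish oil libraries, and 7233 CPM of miR-29a-3p against 3491 to 4473. Fish oil ozone 4 had 8261 CPM of miR-146b-5p against 5030 to 5445, and 158 miRNAs with 5 or more counts against 134 to 138. Fish oil ozone 5 had 52550 CPM of the liver miRNA miR-122-5p against 10420 to 15940. Normal ozone 6 had 8367 CPM of miR-27b-3p against 3200 to 4742 and 5164 CPM of the neutrophil miRNA miR-223-3p against 1330 to 2035.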

How the results depend on the processing

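No paired analysis was possible because each group has its own block of animal numbers and replicate numbers follow accession order. The 31 calls became 30 with DESeq2 size factors, 25 with total count scaling, 36 without the filter, 28 with a mean of 20 counts, 35 with the DESeq2 Wald test, 33 with voom, 23 with the ozone groups only, 26 with the erythrocyte covariate, 46 with the implied read total, 48 with limma on RPM plus 1, 43 with RPM plus 10 and 12 to 34 with 1 library left out (12 without fish oil ozone 3). The interaction stayed at 0 in each fit run. The 13 seed families became 20 with the implied read total, 7 with the ozone groups only and 6 to 19 with 1 library left out. Fish oil minus normal diet, names with at least 5 counts per library differed by −20.9 (exact permutation p = 0.0628), by −27 to −15.2 with 1 library left out, and by 7.0 after thinning to 26772 counts.

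Signs changed where the scale did. In the order implied read total, RPM plus 1 and RPM plus 10, miR-30a-5p was at −0.053, −0.057 and −0.054, miR-30e-5p at −0.032, −0.119 and −0.099, miR-27b-3p at −0.172, −0.092 and −0.085, and miR-29a-3p at −0.159, −0.014 and −0.046. MiR-203a-3p was at −0.10 and −0.044 with RPM plus 1 and plus 10, and miR-101a-3p at −0.0057 with RPM plus 10. Of markers that did not pass, in that same order, miR-451-5p was at −0.43, −0.27 and −0.13, miR-1-3p at −0.96, −0.41 and −0.28, miR-150-5p at −0.73, −0.51 and −0.32, miR-21-5p at −0.48, −0.57 and −0.55, and miR-155-5p at −0.52, −0.49 and −0.15. MiR-126a-3p was at −0.018 with the implied read total. With the erythrocyte covariate miR-451-5p was at −0.024 and miR-1-3p at −0.19. MiR-122-5p was at −1.02, −1.01 and −0.96 in that order. It was at −0.087 with DESeq2 size factors, −0.041 with total counts, −0.065 without the filter, −0.11 with a mean of 20 counts, −0.087 with DESeq2, −0.11 with voom, −0.0055 with the ozone groups only and −0.39 with the covariate. With 1 library left out miR-122-5p lay between −0.63 and 0.12 and miR-1-3p between −0.14 and 0.57. The cause of these changes was not tested.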

Other observations

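A further 264 names had a count in the 11 ozone libraries and were not tested, and the largest single count among them was 23. MiR-488-3p, which was not among the 31, passed without fish oil ozone 3 (edgeR adjusted p = 0.0136) and was at −0.95 with all libraries. MiR-378a-3p, a miRNA of oxidative metabolism, is listed with 0 counts in all 11 libraries, while miR-3557-5p holds 5856 there. Whether reads of miR-378a-3p were counted under the name miR-3557-5p was not tested, so the 0 does not show that miR-378a-3p was absent.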
